A study of Mus musculus with 30 samples.

Results

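Korean Red Ginseng water extract (RGW) was compared with its non-saponin fraction (NSFr) in mouse C2C12 myotubes that received no D-galactose. The libraries were chosen by their labels: 3 RGW libraries against 3 NSFr libraries, 6 of the 30 in the series, and all 12184 expressed genes were tested. Both preparations were given at 100 µg/mL, and the protocol in the labels gives 12 h of treatment. The saponin fraction (SFr, also 100 µg/mL) and the vehicle control were used to place the levels. RGW_Dgal and NSFr_Dgal, cultures that had the same preparations and then 20 mg/mL of D-galactose for 24 h, held the same contrast in other libraries. When the cultures without D-galactose were collected is not given in the sources used here. Each group had 3 libraries, called biological replicates by the series' design text. No source used here says that they came from separate differentiations, so p-values measure the spread between these libraries.

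C2C12 is an established mouse myoblast line of wild-type genotype. Its cells leave the cell cycle and fuse into multinucleated myotubes when serum is lowered, and some mononucleated cells that can still divide commonly remain in such cultures. Saponins of ginseng, the ginsenosides, are steroid-like glycosides, and a water extract holds them together with polysaccharides and other water-soluble matter. The non-saponin fraction is the part of the extract without the ginsenosides, so the contrast sets a preparation that has them against one from which they were taken. Both were given at the same mass per volume, so the amount of non-saponin matter can differ as well. The contrast cannot tell these differences apart.

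The 6 libraries held 24200108 to 28412004 counts, within the 22209229 to 30218353 of the series, and levels are given in CPM, counts scaled to library size. The limit that a count of 0 allows, 3 counts, equals 0.106 to 0.124 CPM. Myotube genes had high counts in all of them: Myog, a transcription factor of differentiation, had 1002 to 1093 CPM in RGW and 892 to 1028 CPM in NSFr, and Myh3, the embryonic myosin heavy chain, 3976 to 4451 CPM and 4182 to 4528 CPM. The myoblast markers Pax7 (30.1 to 33.3 CPM in RGW, 34.2 to 35.3 CPM in NSFr) and Cd34 (53.7 to 56.3 and 48.2 to 53.4 CPM) were also present. RGW replicate 1 stood apart in its relation to transcript length, and the main counts are also given without it. In RNA from whole cultures, fewer cells of a type and less RNA per cell cannot be told apart.

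RGW and NSFr differed in a modest number of genes, by small amounts. Of 12184 genes, 499 (4.1%) were called at an adjusted p under 0.05 in edgeR's quasi-likelihood test. RGW had the higher level in 216 of them (1.77%) and the lower level in 283 (2.32%). The median size of a called difference was 0.22 on the log2 scale, or 1.17-fold, against a median log2 fold change of 0.0046 over all genes. Only 28 called genes differed by at least 1.5-fold, 27 of them lower in RGW, and the 12 that reached 2-fold were all lower and had means of at most 1.24 CPM. In 491 of the called genes the 3 RGW libraries lay wholly above or below the 3 NSFr libraries, against 22.9% of all genes tested. Calls and separation came from the same libraries, so near-complete separation of called genes follows largely from their choice, here and below. Without RGW replicate 1 the test called 195 genes, 68 higher and 127 lower. Of these, 19 reached 1.5-fold (18 lower), 2 reached 2-fold, and all 195 were separate between the groups, against 34.0% of the genes then tested. Without RGW replicate 3 it called 212, and without NSFr replicates 1, 2 and 3 it called 271, 213 and 293.

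**Figure D1:**
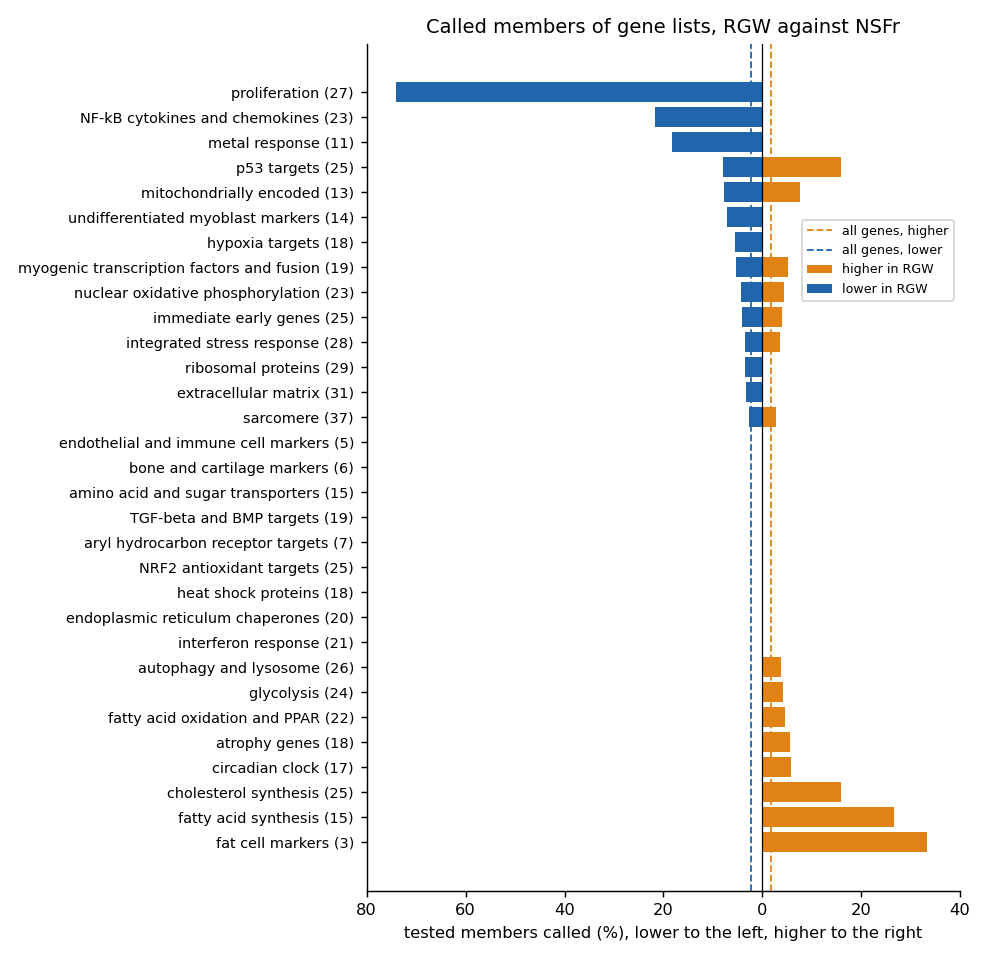
Share of the tested members of 31 gene lists that were called in RGW against NSFr (bars; lower in RGW to the left in blue, higher to the right in orange; the number of tested members stands in brackets). Dashed lines mark 2.32% lower and 1.77% higher over all genes; the proliferation list reaches furthest, with 20 of 27 members lower.

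Genes of cell division were lower in RGW than in NSFr. Of the 27 proliferation genes tested, which cover DNA replication, cyclins and the mitotic spindle, 20 were called lower and 0 higher, against 2.32% and 1.77% of all genes. All 27 log2 fold changes were negative, with a median of -0.36 against 0.0046 over all genes, and in 25 every RGW library lay below every NSFr library, which held for 11% of all genes. Summed over the list, the level was 497, 492 and 445 CPM in the RGW libraries and 625, 588 and 574 CPM in the NSFr libraries. Control held 559, 533 and 553 CPM, between the 2 groups, and SFr was lowest, with 351, 354 and 351 CPM. Of 14 tested myoblast markers, 10 had negative log2 fold changes (median -0.070), and Hes1 was the 1 called. The markers were split, with 4 wholly lower in RGW and 3 wholly higher, against 11% and 12% of all genes. The sum of the markers, which abundant members dominate, overlapped at 3790 to 3897 CPM in RGW and 3829 to 3888 CPM in NSFr. The part of these markers in the result was not tested. Leaving out NSFr replicate 1 left 11 genes of the list called, and leaving out RGW replicate 3 left 8. Without RGW replicate 1, which stood apart, 15 were called.

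Ccna2, the cyclin that drives S phase and entry into mitosis, had the smallest adjusted p of the list. It measured 19.7, 20.7 and 17.1 CPM in RGW, against 28.4, 28.5 and 28.6 CPM in NSFr. The RGW libraries varied by a few CPM and all lay far below the tight NSFr group (log2 fold change -0.57 ± 0.069 SE, adjusted p = 2.0e-05). In control, Ccna2 averaged 25.2 CPM, closer to NSFr than to RGW, and in SFr it averaged 9.29 CPM. Genes of mitotic exit and the spindle followed. Cdc20, the activator of the anaphase-promoting complex, had 11.5, 11.5 and 11.7 CPM in RGW, against 16.9, 16.3 and 15.6 CPM in NSFr (-0.49 ± 0.079, adjusted p = 0.00099). Plk1, the polo-like kinase of mitosis, had 6.03, 6.32 and 6.16 CPM in RGW and 10.3, 8.67 and 8.50 CPM in NSFr (-0.57 ± 0.099, adjusted p = 0.0015). Nuf2, a subunit of the kinetochore complex that holds microtubules, had 8.67, 7.50 and 7.57 CPM in RGW and 11.4, 11.4 and 10.9 CPM in NSFr (-0.51 ± 0.084, adjusted p = 0.0012). On GRCm38, the protein-coding gene Ccna2 lies at chr3:36564865-36572150 on the minus strand. None of these 4 genes overlapped between the groups, and each stayed called under every alternative tried.

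Members of DNA replication were split. Mcm5 and Mcm2, subunits of the replicative helicase, had log2 fold changes of -0.52 ± 0.12 and -0.36 ± 0.065 and were called (adjusted p = 0.013 and 0.0016). Mcm6, another subunit of that helicase in the list, was not called. Pcna, the sliding clamp of DNA polymerase, had 50.3, 51.2 and 51.0 CPM in RGW and 56.6, 57.8 and 58.2 CPM in NSFr, which do not overlap, yet it missed the threshold (-0.18 ± 0.054, adjusted p = 0.053). Rrm2, the small subunit of ribonucleotide reductase, overlapped between the groups, with 83.2 to 86.6 CPM in RGW and 83.7 to 89.5 CPM in NSFr (-0.041 ± 0.037, adjusted p = 0.61). Mki67, the marker of dividing cells, had 44.4, 41.9 and 27.5 CPM in RGW and 58.4, 50.1 and 45.5 CPM in NSFr. Its RGW replicate 3 was far below the other two, and the gene was not called (-0.44 ± 0.15, adjusted p = 0.12). The list's kinesin Kif11, its spindle gene Aspm and the kinetochore gene Ndc80 were not called either, with log2 fold changes from -0.40 to -0.28.

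**Figure D2:**
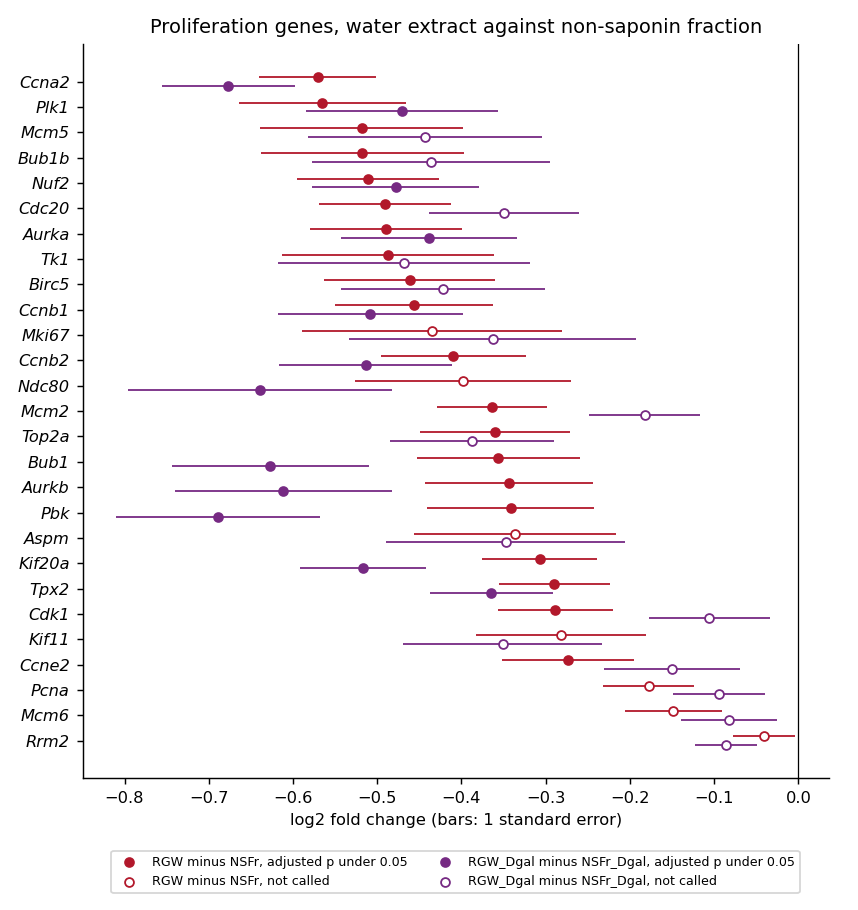
Log2 fold changes of the 27 proliferation genes for RGW minus NSFr (red) and RGW_Dgal minus NSFr_Dgal (purple), with bars of 1 standard error; filled points have an adjusted p under 0.05. Every red point lies left of 0, from -0.57 for Ccna2 to -0.041 for Rrm2.

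Outside the list, 3 further genes of mitosis stood among the 12 largest falls, counted over called genes with a mean of at least 5 CPM and no overlap between the groups. Depdc1a had 4.03, 4.71 and 3.91 CPM in RGW, against 6.84, 6.48 and 5.53 CPM in NSFr (-0.57 ± 0.11, adjusted p = 0.0019). Prr11 had 7.25, 7.39 and 6.56 CPM in RGW and 10.45, 10.8 and 10.1 CPM in NSFr (-0.57 ± 0.097, adjusted p = 0.0013). Ckap2l, a mitotic spindle protein, had 10.7, 8.86 and 7.89 CPM in RGW and 13.3, 13.5 and 12.7 CPM in NSFr (-0.53 ± 0.10, adjusted p = 0.0029). All 3 were separate between the groups, as their choice required, and stayed called under every alternative.

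Promoters of genes that peak in late cell cycle are known to carry a cell cycle homology region, TTTGAA, close to the start, and CCAAT boxes, bound by NF-Y, upstream of it. The 120 bases before the RefSeq start (GRCm38.p6) are shown for the 5 genes, among the called list members and the 12 largest falls, that held both motifs there. They are given 5′ to 3′ on the gene's strand with both motifs, read on either strand, in capitals. Both motifs were added after the values were seen.
Cdc20, chr4:118437344-118437463, minus strand: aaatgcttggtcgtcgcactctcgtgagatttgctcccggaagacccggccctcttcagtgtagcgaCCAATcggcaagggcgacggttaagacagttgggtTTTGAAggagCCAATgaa
Depdc1a, chr3:159495313-159495432, plus strand: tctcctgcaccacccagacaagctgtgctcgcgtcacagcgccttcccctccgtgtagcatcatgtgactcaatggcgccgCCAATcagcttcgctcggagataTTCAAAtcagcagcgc
Ckap2l, chr2:129297213-129297332, minus strand: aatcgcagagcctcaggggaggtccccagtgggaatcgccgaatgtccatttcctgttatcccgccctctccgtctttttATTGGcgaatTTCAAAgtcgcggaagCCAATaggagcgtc
Cdk1, chr10:69352913-69353032, minus strand: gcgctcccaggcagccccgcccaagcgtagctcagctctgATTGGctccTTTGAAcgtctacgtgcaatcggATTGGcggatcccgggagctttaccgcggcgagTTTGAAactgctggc
Top2a, chr11:99024190-99024309, minus strand: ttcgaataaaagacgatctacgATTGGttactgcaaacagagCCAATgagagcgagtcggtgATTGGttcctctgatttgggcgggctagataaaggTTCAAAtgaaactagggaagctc

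In each of the 5 promoters a TTTGAA or its reverse complement TTCAAA began within 30 bases of the start. Over the 250 bases before the start, the 21 proliferation genes with a RefSeq promoter held TTTGAA on either strand in 7 (33.3%), against 10.2% of 9683 tested genes with a promoter. CCAAT was present in 17 of the 21 (81.0%), against 36.4%, and both motifs in 7 (33.3%), against 3.99%. These are matches of letters, not measured binding. The shares cover all list members with a promoter, called or not. The list was written with earlier results of these data known, and the motifs were added after the values were seen. The shares are therefore a description and not independent of the levels. Kif11 and Mki67, which held both motifs, were not called. Of the genes shown, Cdk1, the kinase of mitotic entry, had 17.96, 18.2 and 17.1 CPM in RGW and 22.9, 20.3 and 21.9 CPM in NSFr (-0.29 ± 0.068, adjusted p = 0.013). Top2a, the topoisomerase that untangles replicated chromosomes, had 49.0, 44.4 and 36.2 CPM in RGW and 62.7, 53.8 and 49.9 CPM in NSFr (-0.36 ± 0.089, adjusted p = 0.023).

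The chemokine genes Ccl2, Cxcl5 and Cxcl1, all with low counts, were lower in RGW. Of 34 genes in a list of NF-kB-driven cytokines and chemokines, 23 were tested, and 5 were called lower and 0 higher, against 2.32% and 1.77% of all genes, with a median log2 fold change of -0.12. Ccl2, which draws monocytes to tissue, had 0.651, 0.750 and 0.846 CPM in RGW, against 1.73, 1.42 and 2.06 CPM in NSFr. The groups were apart by more than their own spread (-1.20 ± 0.21, adjusted p = 0.0016), and the RGW values overlapped those of control, 0.675 to 1.07 CPM. Cxcl5, a neutrophil-attracting chemokine, had 0.407, 0.50 and 0.846 CPM in RGW and 1.297, 1.31 and 1.24 CPM in NSFr (-1.13 ± 0.24, adjusted p = 0.0060). Its control mean was 0.332 CPM, below both, and its SFr mean of 3.10 CPM was the highest of the 4 groups. Cxcl1, a related neutrophil chemokine, had 0.326, 0.50 and 0.362 CPM in RGW and 1.14, 0.814 and 0.701 CPM in NSFr (-1.14 ± 0.31, adjusted p = 0.030). It lost its call when any of RGW replicates 1 and 3 or NSFr replicates 1 and 2 was left out. The call was also lost in DESeq2 and in a fit of only the 2 groups, while Ccl2 and Cxcl5 kept theirs throughout.

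On GRCm38, Ccl2 lies at chr11:82035571-82037453 and Cxcl5 at chr5:90759360-90761624, both on the plus strand. Zc3h12a, the RNase that degrades cytokine messages, had 8.27, 9.04 and 9.02 CPM in RGW and 10.8, 11.5 and 12.3 CPM in NSFr (-0.40 ± 0.087, adjusted p = 0.0079). Cxcl12, a chemokine made by stromal and muscle cells, was called at a much smaller fold, with 94.5, 96.5 and 97.1 CPM in RGW and 105.8, 105.2 and 105.6 CPM in NSFr (-0.14 ± 0.035, adjusted p = 0.024). It lost the call under 6 alternatives, among them the removal of RGW replicate 1 or 3 or any NSFr library. The inhibitor Nfkbia and the subunits Nfkb1 and Nfkb2, common read-outs of the pathway, showed no such difference. Nfkbia had 20.7 to 21.4 CPM in RGW and 19.3 to 22.5 CPM in NSFr, with a 95% interval of the log2 fold change from -0.15 to 0.14. The intervals of Nfkb1 and Nfkb2 ran from -0.068 to 0.077 and from -0.088 to 0.068. Il6 and Il1b, the cytokines themselves, were not called (-0.24 ± 0.29 and 0.33 ± 0.13, adjusted p = 0.73 and 0.15). Removal of RGW replicate 1, RGW replicate 3, NSFr replicate 1 or NSFr replicate 2 left 3 of the 5 calls. An NF-kB motif, GGGNNTTCC on either strand, was found in 3 of 16 list promoters (18.8%), against 6.28% of all, and the 3 were Nfkb2, Tnfaip3 and Tnip1, none of them called.

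**Figure D3:**
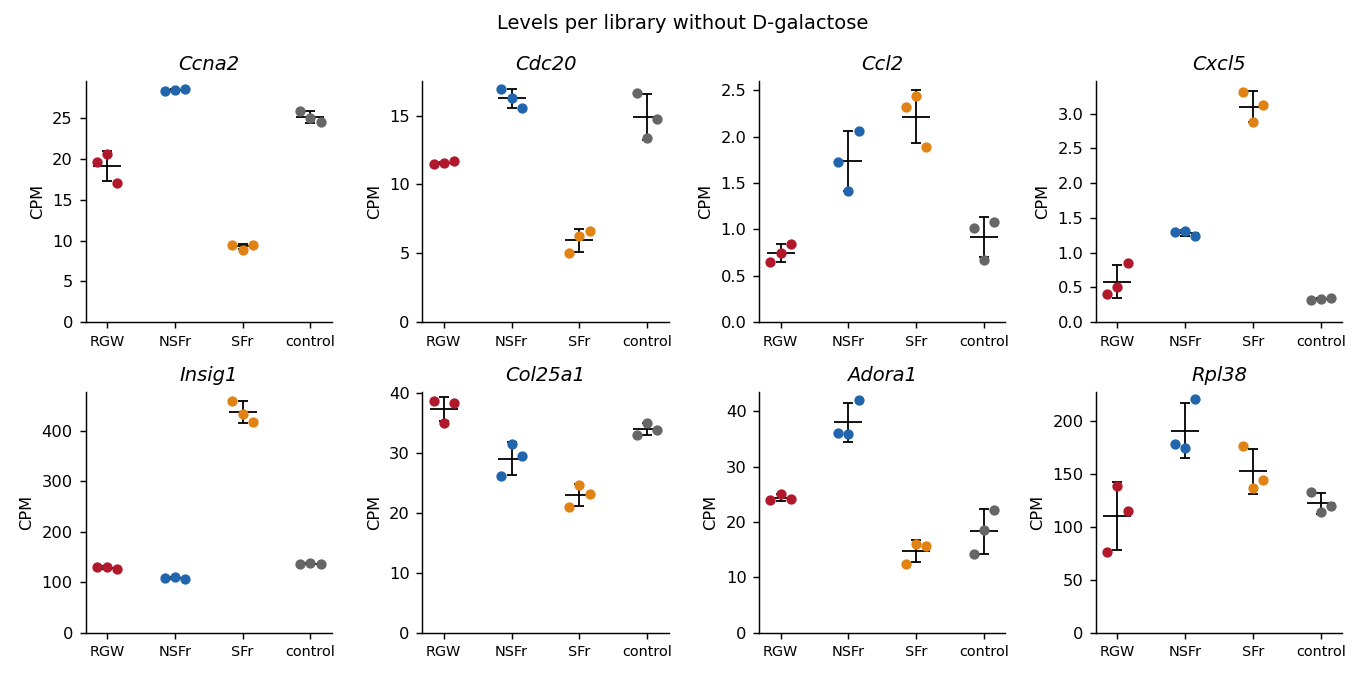
CPM per library (points) with the mean and SD (black, n = 3) for 8 genes in RGW, NSFr, SFr and control. Ccna2, Cdc20, Ccl2, Cxcl5, Adora1 and Rpl38 are lower in RGW than in NSFr and Insig1 and Col25a1 higher. Genes whose SFr mean lies outside the range of the other 3 groups include Ccna2 at 9.29 CPM and Cdc20 at 5.96 CPM, both below. They also include Cxcl5 at 3.10 CPM and Insig1 at 436 CPM, both above.

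A few sterol and fatty acid synthesis genes were slightly higher in RGW. In the cholesterol synthesis list 4 of 25 genes were called higher and 0 lower, against 1.77% and 2.32% of all genes, 20 of 25 log2 fold changes were positive, and the median was 0.085. Summed CPM were 2906, 2862 and 2861 in RGW and 2718, 2756 and 2738 in NSFr. Both groups lay below control, at 3032, 2981 and 3064 CPM, and far below SFr, at 4960, 4809 and 4712 CPM. Insig1, the sensor that holds the SREBP complex in the endoplasmic reticulum and is itself an SREBP target, had 131, 129 and 126 CPM in RGW, against 109, 110 and 107 CPM in NSFr. The groups were apart by more than their range (0.25 ± 0.042, adjusted p = 0.0012). Cyp51, the lanosterol demethylase, had 214, 198 and 202 CPM in RGW and 179, 178 and 176 CPM in NSFr (0.20 ± 0.036, adjusted p = 0.0016). On GRCm38, Insig1 lies at chr5:28071363-28078662 on the plus strand. Insig1 and Cyp51 kept their calls under every alternative.

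Dhcr7, the last enzyme of cholesterol synthesis, and Hsd17b7, a reductase of the same pathway, were called with log2 fold changes of 0.16 ± 0.037 and 0.20 ± 0.049 (adjusted p = 0.013 and 0.017). Both lost the call without NSFr replicate 1, RGW replicate 1 or RGW replicate 3. Msmo1, a sterol methyl oxidase, had 93.9, 95.0 and 92.3 CPM in RGW and 82.3, 87.9 and 86.8 CPM in NSFr, without overlap, and was not called (0.13 ± 0.043, adjusted p = 0.078). Of 15 fatty acid synthesis genes, 4 were called higher and 0 lower, against 1.77% and 2.32% of all genes. The list's median log2 fold change was 0.017, against 0.0046 over all genes, and 5 of the 15 were negative. The 4 genes called higher were the desaturases Scd1 and Scd2 (0.16 ± 0.035 and 0.15 ± 0.030), the carboxylase Acacb (0.39 ± 0.11) and the acyltransferase Gpam (0.14 ± 0.037). Scd2 had 3213, 3106 and 3064 CPM in RGW and 2868, 2822 and 2789 CPM in NSFr. Without RGW replicate 1, 0 of these 4 were called, Acacb also lost its call without RGW replicate 2 or any NSFr library, and Gpam without RGW replicates 2 or 3 or NSFr replicates 2 or 3. The sterol response motif TCACNCCAC on either strand was in 1 of 17 cholesterol gene promoters (5.88%), against 0.950% of all. It was that of Hmgcs1, which was not called.

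The 12 largest rises, counted in the same way, included genes of varied function. Ppp1r3a, the muscle subunit that directs protein phosphatase 1 to glycogen, had 13.5, 12.75 and 12.9 CPM in RGW and 10.1, 9.34 and 9.08 CPM in NSFr (0.46 ± 0.075, adjusted p = 0.0012). Col25a1, a membrane collagen of muscle fibres that mice need for motor innervation, had 38.6, 35.0 and 38.2 CPM in RGW and 26.1, 31.5 and 29.4 CPM in NSFr (0.36 ± 0.066, adjusted p = 0.0019). Car2, carbonic anhydrase 2, had 22.9, 24.6 and 25.0 CPM in RGW and 17.3, 20.2 and 19.5 CPM in NSFr (0.35 ± 0.059, adjusted p = 0.0012). Nt5e, the ectoenzyme CD73 that makes adenosine from AMP, had 31.5, 33.6 and 35.0 CPM in RGW and 24.4, 26.8 and 29.5 CPM in NSFr (0.31 ± 0.058, adjusted p = 0.0019). These 4 and Lrrc2 (0.34 ± 0.066) were separate between the groups, as their choice required, and stayed called under every alternative. The muscle AMP deaminase gene Ampd1 (0.33 ± 0.090), Igfn1, a protein of the muscle Z-disc region (0.37 ± 0.099), the ferritin receptor gene Scara5 (0.30 ± 0.085), Wdr89 (0.35 ± 0.096) and Mblac2 (0.31 ± 0.089) each lost the call when any of RGW replicates 1 and 2 or NSFr replicate 1 was left out, and under removal of further libraries.

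Adora1, the adenosine A1 receptor, also stood among the 12 largest falls. It had 23.9, 25.1 and 24.2 CPM in RGW, against 36.1, 36.0 and 42.1 CPM in NSFr (-0.64 ± 0.15, adjusted p = 0.021). Control ranged from 14.2 to 22.3 CPM and SFr averaged 14.7 CPM, so all RGW and NSFr libraries lay above the control libraries. The call was lost without NSFr replicate 3, RGW replicate 1 or RGW replicate 3. Mt1 and Mt2, the metallothioneins that bind zinc and copper, were the 2 called of 11 metal response genes, both lower in RGW, against 2.32% called lower over all genes. The list's median log2 fold change was 0.0014, with 7 of 11 positive. Mt2 had 32.8, 37.5 and 35.7 CPM in RGW and 44.3, 46.7 and 42.95 CPM in NSFr (-0.34 ± 0.077, adjusted p = 0.013), and Mt1 gave -0.28 ± 0.071 (adjusted p = 0.024). Control held 23.5 to 32.3 CPM of Mt2 and SFr averaged 89.8 CPM. Both calls were lost without NSFr replicate 2 or RGW replicate 1, that of Mt1 also without NSFr replicate 1 or RGW replicate 2, and that of Mt2 also in a fit that removed a length trend.

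The p53 target list had 4 genes called higher and 2 lower of 25, against 1.77% and 2.32% of all genes. The rises were Ei24 (0.19 ± 0.032, adjusted p = 0.0012), Plk2, a stress-responsive kinase (0.17 ± 0.036), the receptor gene Eda2r (0.16 ± 0.045) and Gadd45a, a growth arrest gene (0.22 ± 0.057). The falls were Gtse1, a protein of G2 and mitosis that is also counted as a p53 target (-0.50 ± 0.11), and Ddit4, an inhibitor of mTORC1 (-0.25 ± 0.068). Ei24 had 147, 148 and 143 CPM in RGW and 126, 128 and 129 CPM in NSFr and kept its call throughout. Of the others, Gtse1 lost the call without RGW replicate 2, Plk2 without NSFr replicate 2 or RGW replicate 3, Gadd45a without NSFr replicates 1 or 2 or RGW replicates 2 or 3, and Ddit4 without any NSFr library or RGW replicates 1 or 3. Eda2r was not followed through the alternatives.

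In the contractile, myogenic and integrated stress response lists 1 gene each was called each way, with 1.77% of all genes called higher and 2.32% lower. Of 37 sarcomere genes, Myom2, a protein of the M band, was called higher (0.15 ± 0.036) and Tnnt2, the troponin T of heart and embryonic muscle, lower (-0.23 ± 0.047), both lost without RGW replicate 1, and Myom2 also without NSFr replicates 2 or 3. Of 19 myogenic genes, Atp2a1, the calcium pump of fast fibres, was called higher (0.14 ± 0.035) and Cdh15, the cadherin of myoblasts, lower (-0.15 ± 0.036). Neither held without RGW replicate 3 or NSFr replicate 1, nor Atp2a1 without RGW replicate 1 or Cdh15 without RGW replicate 2 or NSFr replicate 2. Myh3, Myog and Ckm, the muscle creatine kinase, were not called, with 95% intervals from -0.12 to 0.061, from 0.025 to 0.22 and from -0.033 to 0.17. The ubiquitin ligases of atrophy, Fbxo32 and Trim63, were not called (0.032 ± 0.050 and 0.14 ± 0.060, adjusted p = 0.80 and 0.20). In the integrated stress response list, 1 of 28 genes was called higher, the amino acid carrier Slc7a5 (0.16 ± 0.044), and 1 lower, Ddit4. Slc7a5 lost its call without any RGW library and without NSFr replicates 1 or 3. Atf4, its transcription factor, had 288 to 325 CPM in RGW and 265 to 297 CPM in NSFr (0.091 ± 0.047, adjusted p = 0.30), and Asns, Trib3, Chac1 and Gdf15 were not called. No gene was called in 9 of the 31 lists, among them the 25 NRF2 targets, 21 interferon genes, 20 chaperones of the endoplasmic reticulum and 18 heat shock proteins.

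Several genes with short transcripts were lower in RGW, with RGW replicate 1 the lowest library. Rpl38, a ribosomal protein, had 75.9, 139 and 115 CPM in RGW and 178, 174 and 220 CPM in NSFr (-0.79 ± 0.16, adjusted p = 0.0079). RGW replicate 1 was the lowest of the 6 libraries for Rpl38 and likewise for Rps28 (90.6, 157 and 132 CPM in RGW, 177, 202 and 188 CPM in NSFr) and Rps29 (108, 198 and 175 CPM against 236, 237 and 242 CPM). Rps28, Rps29, Rpl39 and the mitochondrially encoded mt-Nd3, all called lower, lost the call without RGW replicate 1, the first 3 also without NSFr replicate 2, and Rpl38 lost it only in the fit restricted to the 2 groups. In the ribosomal protein list, which does not hold Rpl38, Rps28, Rps29 or Rpl39, 1 of 29 tested genes was called lower, Rps19, and 0 higher. Of all genes, 2.32% were called lower and 1.77% higher. The list's median log2 fold change was -0.076, with 23 of 29 negative. Counts of ribosomal protein genes can be shared with their pseudogenes and are uncertain for that reason. In RGW replicate 1 the deviation from the mean of all libraries had a Spearman correlation of 0.378 with transcript length across genes, which are not independent replicates, against -0.102 to 0.197 in the other 5 libraries and -0.335 to 0.283 in the other 29. Its median deviation was -0.149 on the log2 scale in the shortest 1219 of the genes and 0.086 in the longest 1219. Of all called genes, the shortest 1219 held 39 lower and 4 higher, and the longest 1219 held 4 lower and 30 higher. The part of transcript length in the differences was not tested beyond an added fit that removed a smooth length trend from each library. That fit called 860 genes, 463 lower and 397 higher, of which 483 were among the 499, and it called 24 of 27 proliferation genes lower. The largest of the 12 rises, mt-Nd5, had 1339.9, 1195 and 1356 CPM in RGW and 893, 913 and 877 CPM in NSFr (0.54 ± 0.15, adjusted p = 0.049), and lost its call under 10 of 12 alternatives.

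**Figure D4:**
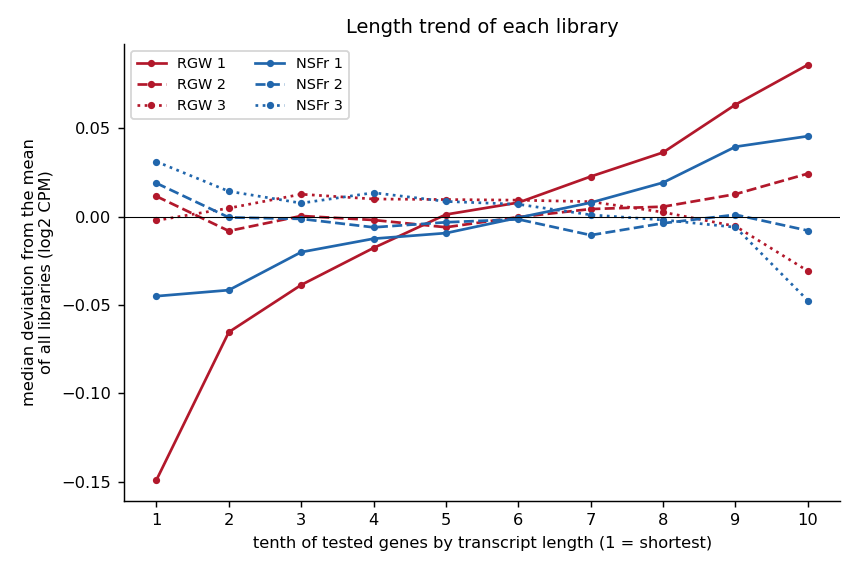
Median deviation of each library from the mean of all 30 libraries (log2 CPM) in 10 equal groups of the tested genes ordered by longest annotated transcript; RGW in red and NSFr in blue, replicates by line style. RGW replicate 1 runs from -0.149 in the shortest group to 0.086 in the longest.

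RGW_Dgal and NSFr_Dgal share no library with the groups above but were part of the same fit. With D-galactose, the differences ran the same way in most called genes. The test called 78 genes (0.64%), 24 higher (0.197%) and 54 lower (0.443%). Of these, 50 were also called without D-galactose, which is 64.1% of the 78 and 10.0% of the 499, and all 50 had the same direction. Of the 499 genes, 464 (93.0%) had the same sign in both backgrounds, against 63.1% of all genes. For the 283 lower genes the median log2 fold change was -0.14 with D-galactose and -0.29 without, and for the 216 higher genes 0.085 and 0.16. These genes were chosen by their values without D-galactose, which alone makes smaller medians likely in the other libraries. The medians therefore do not measure an effect of D-galactose on the difference. Across all 12184 genes the fold changes correlated weakly (Pearson's r = 0.184). Counts of calls here moved between 13 and 53 when single libraries were left out, the fewest without NSFr_Dgal replicate 1. Without RGW replicate 1, 37 genes were called in both backgrounds, all in the same direction, and 186 of 195 (95.4%) had the same sign, against 62.3% of all genes. The Spearman correlation with transcript length was 0.283, 0.222 and -0.261 in the RGW_Dgal libraries and -0.150, 0.051 and 0.162 in the NSFr_Dgal libraries, and its part in these counts was not tested beyond the length fit, which called 161 genes.

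Proliferation genes were again lower in RGW_Dgal, with 12 of 27 called lower and 0 higher, against 0.443% and 0.197% of all genes. The list's median log2 fold change was -0.44, against 0.00027 over all genes. Ccna2 had 10.4, 11.3 and 11.1 CPM in RGW_Dgal, against 18.2, 16.1 and 18.3 CPM in NSFr_Dgal (-0.68 ± 0.079, adjusted p = 8.4e-06). D-galactose alone gave 10.2, 10.3 and 12.0 CPM of Ccna2, level with RGW_Dgal. Summed over the list, RGW_Dgal held 374, 354 and 363 CPM and NSFr_Dgal 470, 421 and 436 CPM. Leaving out NSFr_Dgal replicate 1, NSFr_Dgal replicate 3 or RGW_Dgal replicate 2 left 4, 5 and 3 of the 12 called. Ccl2 had 1.37, 1.36 and 1.05 CPM in RGW_Dgal and 2.93, 2.42 and 2.66 CPM in NSFr_Dgal (-1.07 ± 0.17, adjusted p = 0.0019). Zc3h12a, by contrast, gave -0.021 ± 0.090 (adjusted p = 0.98), and the test of the difference between backgrounds had an unadjusted p of 0.0050 for it and an adjusted p of 0.96. Cxcl5 (-1.11 ± 0.23, adjusted p = 0.015) and Cxcl1 (-1.58 ± 0.33, adjusted p = 0.016) were called as well, as were Mt2 (-0.40 ± 0.077), Col25a1 (0.33 ± 0.070), Dhcr7 (0.17 ± 0.037) and Igfn1 (0.45 ± 0.099). Insig1 and Cyp51 were not called with D-galactose (0.13 ± 0.043 and 0.13 ± 0.036, adjusted p = 0.22 and 0.093).

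A direct test of whether the difference between RGW and NSFr itself changed with D-galactose called 0 genes (0%) in edgeR, with 621 (5.10%) at an unadjusted p under 0.05 and a smallest adjusted p of 0.65. DESeq2 also called 0, with 501 at an unadjusted p under 0.05.

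**Figure D5:**
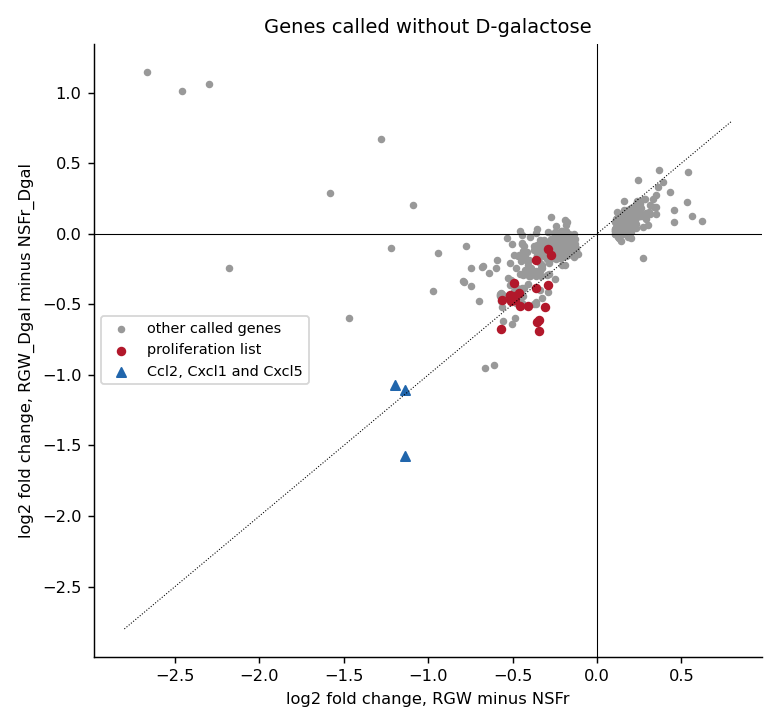
Log2 fold changes of the 499 genes called in RGW minus NSFr (horizontal) against the same genes in RGW_Dgal minus NSFr_Dgal (vertical); proliferation genes in red, Ccl2, Cxcl1 and Cxcl5 as blue triangles, and the dotted line marks equal values. In all, 464 of 499 points have the same sign on both axes.

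Set against the saponin fraction, the genes that separated RGW from NSFr were often called for SFr as well, in either direction. SFr against control shares no library with RGW against NSFr but comes from the same fit, with the same estimates of spread. It called 5251 genes (43.1%). Of the 499 genes, 341 (68.3%) were among them, which is 6.49% of the 5251. In 221 the 2 comparisons had the same direction and in 120 the opposite one. Genes with little spread are more readily called in both comparisons, and the part of this in the overlap was not tested. Among genes lower in RGW, 131 were lower and 61 higher in SFr, and among genes higher in RGW, 90 were higher and 59 lower. Without RGW replicate 1, 153 of 195 genes (78.5%) were called in SFr, 122 in the same direction and 31 in the opposite one, against 43.0% of all genes. Across all genes the 2 sets of fold changes were nearly uncorrelated (Pearson's r = 0.039). In the proliferation list, 26 of 27 genes were called lower in SFr and 1 higher, against 21.8% and 21.3% of all genes. In the cholesterol list, 24 of 25 were higher and 0 lower. The chemokines ran the other way: 18 of the 23 tested NF-kB genes were called higher in SFr and 3 lower, with Ccl2, Cxcl1 and Cxcl5 at means of 2.22, 1.66 and 3.10 CPM, above their NSFr means of 1.74, 0.885 and 1.28 CPM.

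Each preparation was also set against the vehicle control. These 2 comparisons share the control libraries and are given side by side only. The control libraries had Spearman correlations with transcript length of -0.258, 0.238 and 0.231. RGW against control called 391 genes (3.21%) and NSFr against control 984 (8.08%). In the proliferation list, RGW had 8 genes lower and 0 higher (median -0.26), against 1.17% and 2.04% of all genes. These were 7 of the list, and 196 called genes in all, without RGW replicate 1. NSFr had 0 lower and 3 higher (median 0.12), against 3.51% and 4.56%. In the cholesterol list, RGW had 7 genes lower and NSFr 15, with 0 higher in both. Ccna2 was called lower in RGW (-0.39, adjusted p = 0.00096) and not called in NSFr (0.18, adjusted p = 0.094). For Ccl2 the log2 fold change was -0.30 in RGW (adjusted p = 0.59) and 0.89 in NSFr (adjusted p = 0.0049), and for Cxcl5 0.81 (adjusted p = 0.20) and 1.94 (adjusted p = 3.0e-05). Insig1 gave -0.084 in RGW (adjusted p = 0.31) and -0.33 in NSFr (adjusted p = 5.2e-06). Epha1, an ephrin receptor, and Cdhr1, a cadherin-related gene, changed in both, Epha1 by 0.55 and 0.40 and Cdhr1 by -0.66 and -0.47, and neither was called between RGW and NSFr (adjusted p = 0.087 and 0.18).

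Apart from the 3 chemokines, the genes of 2-fold or more included genes known from nerve tissue, with very few counts and lower in RGW. Snap25, a protein of synaptic vesicle release, had 0.122, 0.179 and 0.161 CPM in RGW and 1.22, 0.743 and 0.660 CPM in NSFr (-2.46, adjusted p = 0.039). Gpm6a, Camkv, Syp and the myelin gene Mbp were also called lower. None of these 5 (0) was called without RGW replicate 1 (adjusted p = 0.066 to 0.15). The sum of 18 brain and nerve markers, a list made after these values were seen and of which 8 passed the filter on low counts, was 2.44, 3.32 and 3.73 CPM in RGW, against 10.3, 7.34 and 7.48 CPM in NSFr and 3.63, 3.97 and 2.77 CPM in control. With D-galactose the order was not the same: 4.84, 7.62 and 5.50 CPM in RGW_Dgal and 4.79, 4.13 and 4.96 CPM in NSFr_Dgal. Fat cell markers summed to 85.6 to 88.7 CPM in RGW, against 73.8 to 79.8 CPM in NSFr. Lpl, lipoprotein lipase, held most of those counts and was the only one of 3 tested members called (0.26 ± 0.060, adjusted p = 0.013), while Adipoq, Cidec and Lep had no counts in any of the 6 libraries. The part of these markers in other results was not tested.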

How the data were processed

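Per the labels' protocols, libraries were directional (MGIEasy kit), made from poly(A) RNA and sequenced in pairs by DNBSEQ. The submitters' processing notes name RSEM 1.3.3, STAR 2.7.9a, Trim Galore 0.6.10 and FastQC 0.11.9, and the builds GRCm38 and mm10. Neither the annotation nor the strand setting of RSEM is given in the sources used here. The authors deposited 1 table of expected counts, unnormalized estimates in which RSEM divides reads shared by close copies. Of the values, 19.4% were not whole, and all were rounded. Replicate pairs of RGW and NSFr differed by more than sampling noise (chi-square per degree of freedom 2.92 to 9.16).

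All 30 libraries, in 10 groups of 3, were fitted in 1 group model with edgeR 4.0.16 (quasi-likelihood F-test, robust, TMM scaling, filterByExpr) in R 4.3.3. The filter kept 12184 of 16025 genes, and calls were made at an adjusted p under 0.05 (Benjamini-Hochberg). Adjusted p-values are from this fit unless another tool is named. CPM of genes are scaled to library totals times TMM factors, and summed CPM of lists and cell type markers to library totals. Errors beside log2 fold changes are standard errors, the absolute log2 fold change over the square root of F, with n = 3 per group, and intervals are at the 95% level of that fit. Gene coordinates and transcript lengths came from GENCODE vM21 (GRCm38), which matched 16021 symbols, and promoters from RefSeq (GRCm38.p6).

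The members, the 31 lists and the rule for named genes were chosen with earlier results of these data known. The rule took the 12 largest rises and 12 largest falls among called genes with a mean of at least 5 CPM and no overlap between the groups. Predicted genes were left out there. It also took, at any level, up to 4 called members of each list with at least 2 called, and a fixed set, called or not. The rule gave 76 genes, 54 called and 22 not called, of which the text describes some. Saa3 and Lcn2 of that set did not pass the filter. The brain and nerve markers, the 2 cell cycle motifs and the length trend were added after the values were seen. Lists are given by counts and medians, with no test.

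The alternatives tried were DESeq2 1.42.0, RLE scaling, all genes without the filter, a replicate block, only the groups compared, each library left out and removal of the length trend. The script was tested on simulated data.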

Additional observations from a re-analysis of the deposited data

How the results depend on the processing

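For RGW against NSFr, RLE scaling called 498 genes, no filter on low counts 431 and DESeq2 506, against 499, and 484, 425 and 448 of these were among the 499. Removal of the length trend gave 860 (397 higher, 463 lower), and a fit of only the 2 groups 272 (75 higher). Leaving out 1 library gave 195 to 384 calls, 68 to 159 of them higher and 127 to 225 lower, with fewer libraries in the fit. For RGW_Dgal against NSFr_Dgal, where 78 were called, the length fit gave 161, the fit of only those groups 29, and leaving out 1 library 13 to 53. The test of the difference between backgrounds gave 0 to 1 calls when a library was left out. Whether replicate numbers pair RGW with NSFr samples is not given in the sources used here, and the main fit was unpaired. Same-numbered correlations were low, at 0.094, 0.044 and 0.019, but each RGW sample correlated best with its own number. A batch shared by replicate number was not tested beyond the replicate block. With the replicate block 468 genes were called. Of the 54 called genes that the rule named, 18 kept their call under all 12 alternatives and 36 lost it under at least 1. The losses given for single genes are mainly those from leaving out a library. In the fit of only the 2 groups, calls were also lost for Cxcl1, Cxcl12, Dhcr7, Scd2, Acacb, Gpam, Slc7a5, Ddit4, Plk2 and Gadd45a. The same held for Myom2, Atp2a1, Cdh15, Klf6, Uqcrc2, Ndufa1, Wdr89, Mblac2, Scara5, Rps28, Rps29, Rpl39 and mt-Nd3. Signs turned only in genes that were not called, when a library was left out: over the 6 such fits the log2 fold change ran from -0.052 to 0.23 for Chac1, -0.12 to 0.042 for Aldh3a1, -0.076 to 0.035 for Col23a1, -0.19 to 0.052 for Rgcc and -0.074 to 0.013 for Myh3. The cause of these changes was not tested. With 3 libraries per group, a gene that was not called may still differ.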

Other observations

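Single genes outside the lists above with at least 2 called members were called in several pathways, each with its values and no explanation. Hes1, a Notch target that keeps myoblasts undifferentiated, was lower in RGW, at 38.4, 41.9 and 39.5 CPM, against 52.7, 50.05 and 43.8 CPM in NSFr (log2 fold change -0.29 ± 0.074, adjusted p = 0.022). It was the only one of 14 tested myoblast markers called, where 4.1% of all genes were. Sparc, a matrix glycoprotein, was lower by -0.12 ± 0.034 (adjusted p = 0.042) and the only one of 31 matrix genes called, near the 4.1% of all genes. Pfkm, the muscle phosphofructokinase of glycolysis, was higher, at 720.4, 694 and 705 CPM in RGW and 646, 645 and 660.1 CPM in NSFr (0.12 ± 0.032, adjusted p = 0.032), and was the only one called of 24 glycolysis genes, again near 4.1%. Acadvl, the first enzyme of long-chain fatty acid oxidation, was higher by 0.12 ± 0.035 (adjusted p = 0.046), Tef, a clock-controlled transcription factor, by 0.14 ± 0.028 (adjusted p = 0.0041), and Atg12, which conjugates to Atg5 in autophagy, by 0.16 ± 0.037 (adjusted p = 0.015). These genes were not followed through the alternatives.

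Among immediate early genes, Ier3 was lower in RGW (25.3, 32.6 and 29.7 CPM, against 37.1, 36.9 and 38.6 CPM in NSFr; -0.36 ± 0.078, adjusted p = 0.0083) and lost its call without RGW replicate 1. Klf6 was higher by 0.13 ± 0.032 (adjusted p = 0.020) and lost its call without RGW replicates 1 or 2 or any NSFr library. Nuclear genes of oxidative phosphorylation gave 1 call each way of 23, against 1.77% higher and 2.32% lower of all genes. These were Uqcrc2 (0.12 ± 0.033) and Ndufa1 (-0.35 ± 0.097), both lost without RGW replicate 3 or any NSFr library, Uqcrc2 also without RGW replicate 2 and Ndufa1 also without RGW replicate 1.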
